A study of Mus musculus with 4 samples.

Results

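Enc1, Scara5, Pnoc, Rab6b and Pkd1l2 are 5 protein-coding genes of the 28611 rows in the RNA-seq table of mice with Hdac3 deleted in granulosa cells (GCs). They were chosen by their measured difference between the genotypes, as genes with large rises in Hdac3cKO that belong to no common family, so that this difference is described here with no test. All 5 were higher in both Hdac3cKO libraries than in both Hdac3flox/flox libraries, which their choice favours. This was so for 26.7% of all tested genes. The study asked how HDAC3 in GCs acts on oocyte maturation and compared RNA of 2 Hdac3flox/flox and 2 Hdac3cKO libraries, of female C57BL/6 mice at 24 days of age. Both genotypes carried 2 floxed Hdac3 alleles and both received 1 tamoxifen injection of 20 mg per kg body weight at 18 days, 6 days before collection. The Hdac3cKO mice carried in addition Foxl2-CreERT2, a tamoxifen-activated Cre recombinase under the control of Foxl2, a gene of GCs, and the loss of Hdac3 in this model was described as incomplete. The labels name ovarian granulosa cells, whereas the extraction protocol starts from whole ovaries, and whether PMSG was given to these mice is not stated. In such bulk RNA, fewer cells of a type and less RNA per cell cannot be told apart.

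HDAC3 removes acetyl groups from histones within the NCoR and SMRT corepressor complexes, and genes held down by these complexes can be transcribed more when the enzyme is lost. The 5 genes act in unrelated processes. Enc1 encodes a kelch-BTB protein that binds actin and serves as a substrate adaptor of cullin 3 ubiquitin ligases, and was first described in the developing nervous system. Scara5 encodes a class A scavenger receptor that takes up ferritin. Pnoc encodes prepronociceptin, the precursor of the neuropeptide nociceptin, whose receptor is Oprl1. Rab6b encodes a small GTPase of the Golgi that is enriched in the brain and closely related to the widely expressed Rab6a. Pkd1l2 encodes a polycystin-1-like membrane protein.

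The promoters of Pkd1l2 and Rab6b, the 2 of the 5 genes matched in the RefSeq promoter table of GRCm38.p6, are shown because these 2 genes had like levels and like differences but start in very different sequence. Each runs from 250 bases before to 50 bases after the start given by RefSeq, 5′ to 3′ on the strand of the gene. That of Pkd1l2 lies at chr8:117082400-117082699 on the minus strand and that of Rab6b at chr9:103111824-103112123 on the plus strand. For Pkd1l2 this start is also that of the gene in GENCODE M21, whereas for Rab6b it is 287 bases inside the GENCODE gene, so that the Rab6b window begins 37 bases after the GENCODE start and lies wholly within that gene. Capitals mark a TATA box in Pkd1l2 and, in Rab6b, a GC box that reads on the other strand.
Pkd1l2: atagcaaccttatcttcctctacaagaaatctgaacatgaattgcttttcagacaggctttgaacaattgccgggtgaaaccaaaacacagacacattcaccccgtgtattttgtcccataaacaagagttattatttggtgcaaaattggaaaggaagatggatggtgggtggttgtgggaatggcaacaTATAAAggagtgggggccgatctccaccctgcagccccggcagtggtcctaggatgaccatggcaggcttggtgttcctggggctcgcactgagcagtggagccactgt
Rab6b: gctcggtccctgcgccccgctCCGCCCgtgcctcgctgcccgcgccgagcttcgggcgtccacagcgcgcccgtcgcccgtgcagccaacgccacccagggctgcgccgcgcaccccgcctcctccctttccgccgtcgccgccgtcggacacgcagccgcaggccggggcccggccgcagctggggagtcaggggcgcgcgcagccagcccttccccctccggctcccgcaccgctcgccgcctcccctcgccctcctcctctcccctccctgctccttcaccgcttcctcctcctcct
The Pkd1l2 window had a GC content of 48.7% and 5 CpG, while that of Rab6b had a GC content of 78.7% and 42 CpG. Over all 32851 promoters of the table the median was 52.7% GC with 7 CpG, so that the Rab6b promoter was richer in GC than 98.4% of promoters and that of Pkd1l2 richer than 34.4%. Both windows were searched on both strands for 4 motifs. The GC box of SP1, searched as GGGCGG, is present in 35.7% of all promoters of the table and was found in that of Rab6b alone, on the minus strand with its first base at -229 from the RefSeq start. The TATA box, searched as TATAAA and added after the sequences had been seen, is present in 13.6% of promoters and was found in that of Pkd1l2 alone, at -59. A forkhead motif, searched as GTAAACA, is present in 3.65% of promoters and was found in neither window. A half-site of nuclear receptors, searched as AGGTCA, is present in 16.3% of promoters and was likewise found in neither. Each motif was searched only in the exact letters given, so that looser forms of it would be missed. These matches describe letters in a window and were not tested as binding sites.

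The authors deposited RPKM, the number of reads of a gene scaled to its length and to the library total, and whole reads per gene were recovered from these values. The 4 libraries were of even depth, with totals of 17621129 to 18452073 reads. Hdac3 itself stood at 24.4 RPKM in each control library, against 19.4 and 19.2 RPKM in Hdac3cKO (log2 difference -0.34, limma adjusted p = 0.00935). Of 8 GC markers, 5 were higher and 2 were lower in Hdac3cKO, where 7.68% of all tested genes were higher and 11.0% lower. The lower ones were Foxl2 (log2 difference -0.271, limma adjusted p = 0.0125) and Fshr (log2 difference -0.223, limma adjusted p = 0.0244), while Amh was not called. Summed over the 8 markers, the level was 6990 to 7410 RPKM in the controls, against 8170 to 8580 RPKM for the Hdac3cKO libraries. Inha alone averaged 5113 RPKM in controls against 5935 RPKM after deletion, so the sum mostly follows this gene. GC markers such as Inha were thus abundant, and so were Cyp17a1 of theca cells at 337.4 to 526.6 RPKM and Col1a1 of stroma at 206.0 to 217.7 RPKM, so the libraries did not hold RNA of GCs alone.

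Enc1 was the most abundant of the 5 genes. It was measured at 65.9 and 64.6 RPKM in Hdac3flox/flox, against 195.4 and 190.3 RPKM in Hdac3cKO, from 5712 and 5616 reads and from 17077 and 15881 reads. The groups did not overlap and lay far apart compared with the gap between replicates, as the choice of the gene for a large rise favours. The mean was 65.2 ± 0.874 RPKM in Hdac3flox/flox against 192.8 ± 3.62 RPKM (SD, n = 2 each) in Hdac3cKO, a ratio of 2.96, with an exact 95% interval of 2.89 to 3.02 from the reads that covers counting error only. At this depth even the Hdac3cKO replicates differed by more than counting error, with a ratio of 1.03 and an interval of 1.005 to 1.049. In terms of rank, Enc1 stood above 95.6% of the 15528 tested genes in Hdac3flox/flox and above 99.0% of them in Hdac3cKO. The gene is on chromosome 13 at chr13:97241105-97253034 of GRCm38, on the plus strand (ENSMUSG00000041773.8).

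Scara5, the ferritin receptor gene, showed the closest replicates. It was measured at 21.95 and 21.92 RPKM in Hdac3flox/flox and at 70.0 and 70.4 RPKM in Hdac3cKO, from 2449 and 2450 reads and from 7874 and 7563 reads. Again the genotypes did not overlap, and replicates within each genotype differed by no more than counting error allows. The ratio of the means, 21.9 ± 0.0246 and 70.2 ± 0.287 RPKM (SD, n = 2 each), was 3.20 with a counting interval of 3.10 to 3.31. Its place among tested genes went from above 82.0% of them to above 96.0%. Scara5 lies at chr14:65666403-65764826 of GRCm38, on the plus strand (ENSMUSG00000022032.14).

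Pnoc, Rab6b and Pkd1l2 were low among the tested genes. All 3 were under 0.5 RPKM in both Hdac3flox/flox libraries and passed the filter on low values, at least 0.5 RPKM in at least 2 libraries, through the 2 Hdac3cKO libraries alone, so that only a higher level in Hdac3cKO could bring them into the tested genes. Pnoc was listed at 0.253 and 0.404 RPKM in Hdac3flox/flox and at 1.58 and 1.45 RPKM in Hdac3cKO. These values rest on 10 and 16 reads and on 63 and 55 reads, the fewest of the 5 genes. The ratio of the means, 0.329 ± 0.107 and 1.52 ± 0.0961 RPKM (SD, n = 2 each), was 4.61, and its counting interval of 3.0 to 7.35 was the widest of the 5. The genotypes did not overlap, with a ratio of 3.58 between the lowest Hdac3cKO and the highest Hdac3flox/flox library. Pnoc lies at chr14:65400673-65425472 on the minus strand (ENSMUSG00000045731.6).

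Rab6b was measured at 0.434 and 0.358 RPKM in Hdac3flox/flox, from 40 and 33 reads, and at 1.54 and 1.66 RPKM in Hdac3cKO, from 143 and 147 reads. Both Hdac3cKO libraries were again above both Hdac3flox/flox libraries. The means were 0.396 ± 0.0542 and 1.60 ± 0.0833 RPKM (SD, n = 2 each), a ratio of 4.04 with a counting interval of 3.11 to 5.29. Rab6b lies at chr9:103111787-103185276 on the plus strand (ENSMUSG00000032549.7). An annotated transcript of unknown status, Gm37166, overlaps it on the same strand and held 0, 0, 1 and 4 reads in the 4 libraries.

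Pkd1l2 was measured at 0.322 and 0.289 RPKM in Hdac3flox/flox, from 49 and 44 reads, and at 1.42 and 1.29 RPKM in Hdac3cKO, from 217 and 188 reads. The genotypes did not overlap, and the gap between replicates was within counting error in each. The means were 0.306 ± 0.0237 and 1.35 ± 0.0930 RPKM (SD, n = 2 each), a ratio of 4.42, and the counting interval of the read ratio was 3.52 to 5.61. Pkd1l2 lies at chr8:116995679-117082449 on the minus strand (ENSMUSG00000034416.18). An antisense gene inside it, Gm15395, held 0, 0, 2 and 0 reads. If the counting did not use strand, some of its reads may have been given to Pkd1l2, and how many cannot be told. At 95% identity over 50% of the shorter transcript, Pnoc had 1 near-identical match among annotated transcripts, a stretch of 57 bases shared with the predicted miRNA gene Gm27773, so that some of its few reads are uncertain, and no match was found for Enc1, Scara5, Rab6b or Pkd1l2.

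**Figure D1:**
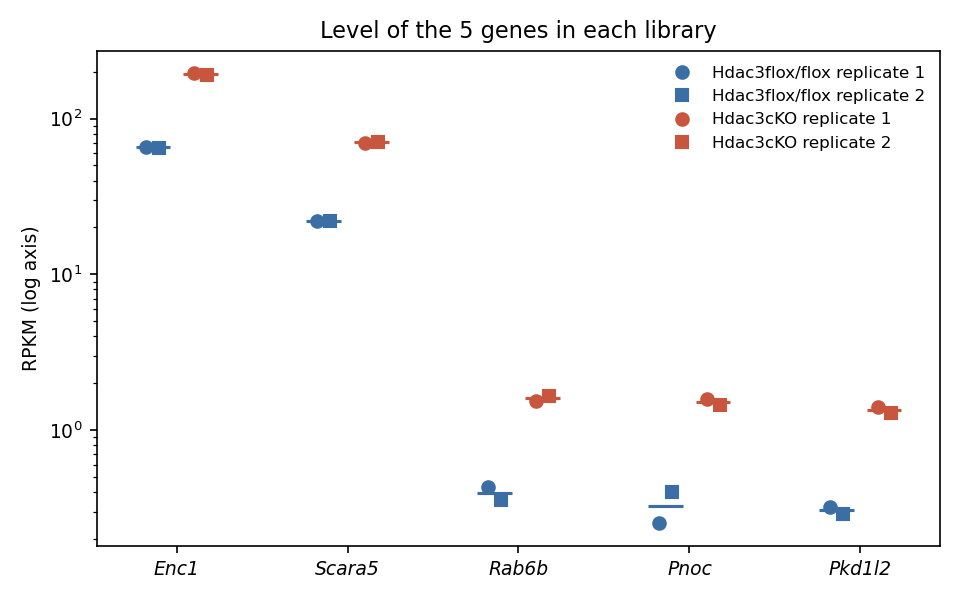
RPKM of the 5 genes in each library on a logarithmic axis, with points for the 2 Hdac3flox/flox and 2 Hdac3cKO libraries and a bar at the mean of each genotype. The Hdac3cKO points lie above the Hdac3flox/flox points for every gene, from 0.306 to 1.35 RPKM in the mean for Pkd1l2 and from 65.2 to 192.8 RPKM for Enc1.

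In Hdac3cKO the order of the mean levels was Enc1, Scara5, Rab6b, Pnoc and Pkd1l2. Enc1 and Scara5 stood apart from each other and from the rest, whereas Rab6b and Pnoc differed by less than their replicates spread, since the values of Pnoc, 1.45 and 1.58 RPKM, reached into those of Rab6b. The values of Pkd1l2, 1.29 and 1.42 RPKM, ended just below those of Pnoc. In Hdac3flox/flox the same 3 low genes overlapped as well, Pnoc spanning 0.253 to 0.404 RPKM and so covering both values of Pkd1l2 and the lower value of Rab6b. Among tested genes, their place changed from above 0.8% (Pnoc), 1.2% (Rab6b) and 0.6% (Pkd1l2) of genes to above 21.8%, 22.7% and 20.0%. As these 3 genes passed the filter through the Hdac3cKO libraries alone, a very low place in Hdac3flox/flox and a higher one in Hdac3cKO follow from the filter.

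On the log2(RPKM + 0.1) scale the differences were 1.94 for Pnoc, 1.84 for Pkd1l2, 1.78 for Rab6b, 1.68 for Scara5 and 1.56 for Enc1. These are the values on which the genes were selected, and they ranked 9th, 12th, 15th, 18th and 19th among the 12646 tested protein-coding genes. Counting all kinds of genes, 84 tested genes had a difference at least as large as that of Enc1, the lowest of the 5, and 19 of these were protein-coding, Enc1 included. The median difference over all tested genes was -0.036. The order of the 5 genes depends on the constant added before the logarithm, which pulls low genes towards 0: without it the differences were 2.24 for Pnoc, 2.15 for Pkd1l2 and 2.02 for Rab6b, and with 1 RPKM added they were 0.92, 0.85 and 0.90, below those of Scara5 and Enc1. Over all tested genes, both Hdac3cKO libraries lay above both Hdac3flox/flox libraries in 26.7%, and because the 5 genes were chosen for being higher, their lack of overlap says nothing further.

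**Figure D2:**
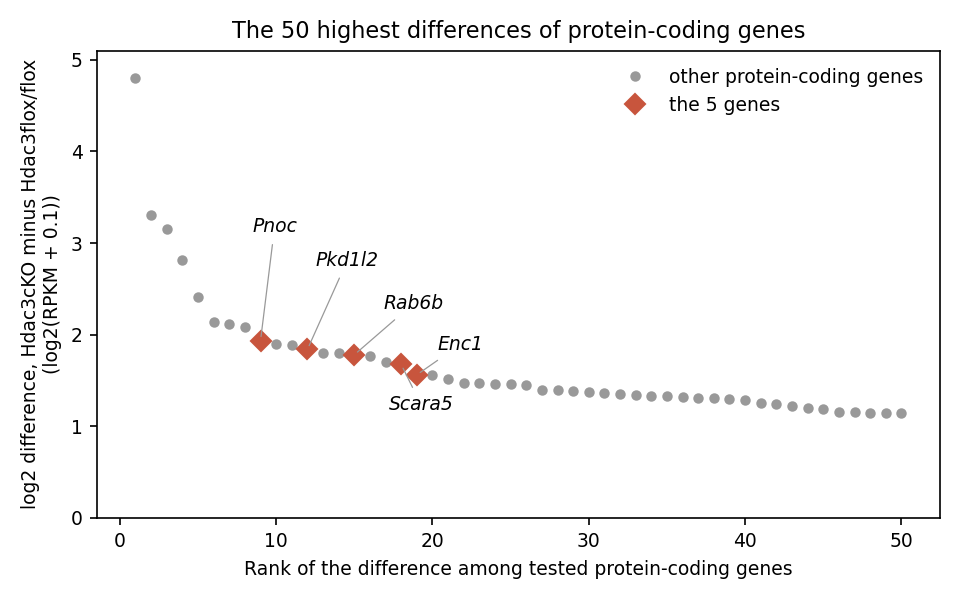
Difference of log2(RPKM + 0.1), Hdac3cKO minus Hdac3flox/flox, of the 50 tested protein-coding genes with the highest values, against their rank. Diamonds mark the 5 genes, which take ranks 9 to 19 with differences of 1.94 to 1.56, and grey points are other genes.

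To ask whether relatives and partners of these genes moved with them, 114 genes of 6 lists were looked up, of which 82 were tested. In limma, 7 were higher (8.54%), 9 were lower (11.0%) and 66 were not called, with a median log2 difference of -0.04. Over all 15528 tested genes, 7.68% were higher, 11.0% were lower and 18.7% were called in either direction, at an adjusted p under 0.05. The shares over the lists are thus close to those over all genes. With any 1 library left out, which leaves 1 library in a genotype, few or none of the list genes were called by limma.

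Of 38 tested genes of the kelch-BTB list, which includes Cul3, the scaffold of their ligases, 2 were higher and 4 were lower. Cul3 itself was higher with a log2 difference of 0.14 or 1.11-fold (limma adjusted p = 0.0403), as was Kbtbd7 at 0.28 (limma adjusted p = 0.0404). Lower were Ivns1abp, which binds actin as Enc1 does (log2 difference -0.67), Klhl13, an adaptor that acts in mitosis (-0.47), Klhl24, which targets intermediate filaments (-0.44), and Klhl31, known from muscle (-0.94). Klhl25, the closest relative of Enc1, was measured at 9.11 ± 0.227 and 8.51 ± 0.292 RPKM (SD, n = 2 each), with no call (log2 difference -0.10, limma adjusted p = 0.253). The share of Enc1 in the summed RPKM of 48 kelch-BTB genes was 13.5% and 12.7% in Hdac3flox/flox and 35.4% in both Hdac3cKO libraries, and Enc1 moved from the 2nd to the 1st place among them, ahead of Ivns1abp.

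Of the other class A scavenger receptors, Scara3 was lower in Hdac3cKO at 6.62 ± 0.543 against 8.91 ± 0.259 RPKM (SD, n = 2 each), a log2 difference of -0.43 (limma adjusted p = 0.0287). Colec12 had a log2 difference of -0.24 and was not called (limma adjusted p = 0.0511), and Msr1 and Marco, receptors of macrophages, were below the filter. Scara5 made up 58.2% and 59.4% of the summed RPKM of the 5 class A genes in Hdac3flox/flox and 85.6% and 85.0% in Hdac3cKO. Of 20 tested genes of iron handling, 3 were higher, 3 were lower and 14 were not called. Higher were Tfrc, the transferrin receptor (log2 difference 0.46, 10.6 ± 0.0911 to 14.6 ± 0.109 RPKM), Ncoa4, which carries ferritin to the lysosome (0.39), and Pcbp1, which loads iron into ferritin (0.11). Lower were Heph, a ferroxidase of iron export (log2 difference -0.78, 60.2 ± 0.388 to 35.1 ± 1.27 RPKM), Slc40a1, the iron exporter ferroportin (-0.57), and Ftl1, a light chain of ferritin (-0.24, limma adjusted p = 0.0225). Fth1, the ferritin heavy chain, had a log2 difference of -0.11 and was not called (limma adjusted p = 0.0783).

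Of 5 tested genes of opioid peptides, their receptors and peptide processing, Penk, the enkephalin precursor, was lower (log2 difference -0.55, limma adjusted p = 0.0224) and 4 were not called. Oprl1, the nociceptin receptor, was measured at 1.37 and 0.988 RPKM in Hdac3flox/flox and 1.17 and 1.29 RPKM in Hdac3cKO, with a log2 difference of 0.07 and overlapping genotypes (limma adjusted p = 0.84). Cpe, a carboxypeptidase that trims peptide precursors, was abundant at 286.4 to 329.6 RPKM and was not called (log2 difference -0.14). Scg5, a partner of a prohormone convertase, was not called either (log2 difference -0.58, limma adjusted p = 0.054). Among the 3 opioid-type precursors analysed, Pnoc, Penk and Pomc, the share of Pnoc in their summed RPKM was 2.52% and 3.82% in Hdac3flox/flox and 19.6% and 16.4% in Hdac3cKO, where it stood above Pomc and below Penk.

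Rab6a, the widely expressed relative of Rab6b, was measured at 35.1 and 34.8 RPKM in Hdac3flox/flox and at 38.2 and 39.6 RPKM in Hdac3cKO and was higher by a log2 difference of 0.16 (limma adjusted p = 0.0422). Rab6b remained the minor form, at 1.22% and 1.02% of the summed RPKM of both genes in Hdac3flox/flox and 3.87% and 4.02% in Hdac3cKO. Of 14 tested regulators and effectors of RAB6, Rab6a among them, 1 other gene was called, Kif20a, a kinesin of the Golgi and of dividing cells, which was higher (log2 difference 0.27, limma adjusted p = 0.0186). Of the polycystin family 3 genes were tested beside Pkd1l2 and 0 were called by limma, with 0 at an unadjusted p under 0.05. Pkd1 had a log2 difference of -0.10, Pkd2 of -0.12 and Pkd2l2 of 0.05. The 2 other polycystin-1-like genes looked up were below the filter, Pkd1l1 with 0, 0, 2 and 2 reads and Pkd1l3 with 27, 41, 51 and 46 reads in the 4 libraries. Pkd1l2 made up 0.902% and 0.801% of the summed RPKM of 10 polycystin genes in Hdac3flox/flox and 3.92% and 3.59% in Hdac3cKO.

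**Figure D3:**
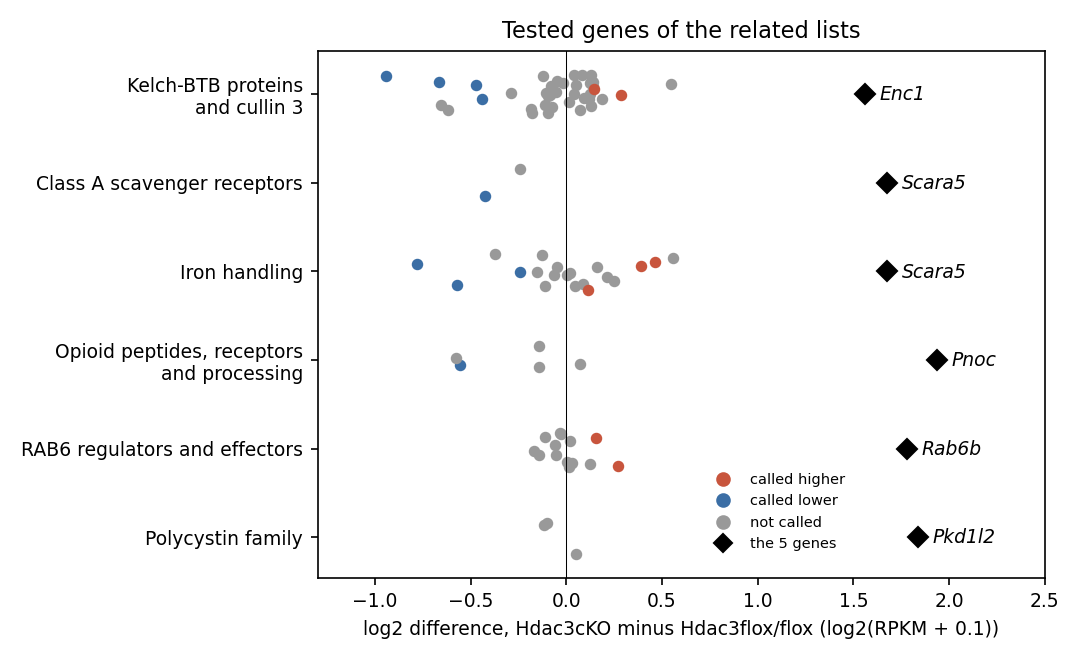
Log2 differences, Hdac3cKO minus Hdac3flox/flox, of the tested genes of the 6 related lists, with red for genes called higher, blue for genes called lower and grey for genes not called in limma. Black diamonds are the 5 genes, at 1.56 to 1.94, to the right of all tested relatives in their lists, which their choice favours.

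Position was not used in choosing the genes. Scara5 and Pnoc are both on chromosome 14, 241 kb apart and on opposite strands. Of the 2 annotated genes between them, Nuggc was below the filter and Elp3, the catalytic subunit of Elongator, was not called at 34.8 and 37.4 RPKM in Hdac3flox/flox and 36.0 and 33.9 RPKM in Hdac3cKO (log2 difference -0.05, limma adjusted p = 0.564). Within 500 kb of the 5 genes, 39 other genes were tested, of which 9 were higher, 8 were lower and 22 were not called in limma, so that 43.6% were called against 18.7% of all tested genes. Of the 15 tested genes around Scara5 and Pnoc, 6 were higher and 4 were lower, around Enc1 3 of 6 were lower and 0 were higher (median log2 difference -0.15), around Rab6b 1 of 8 was higher and 1 lower, and around Pkd1l2 2 of 10 were higher and 0 were lower (median log2 difference 0.25). With any 1 library left out, few or none of the genes near the 5 were called by limma.

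The nearest tested gene to Pkd1l2 is Gcsh, which encodes the H protein of the glycine cleavage system and lies 2.14 kb away on the same strand, beyond the 3′ end of Pkd1l2. Gcsh was measured at 43.4 and 44.7 RPKM in Hdac3flox/flox and at 100.7 and 88.9 RPKM in Hdac3cKO, a log2 difference of 1.10 (standard error 0.067, limma adjusted p = 0.00496). Both genes were thus higher, Gcsh at a level far above that of Pkd1l2. Atmin, on the side of Gcsh, was not called, and Cmip, 175 kb away on the other side, was higher by a log2 difference of 0.29 (limma adjusted p = 0.0278).

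Beyond the 3′ end of Scara5, Pbk, a mitotic kinase, Esco2, a cohesin acetyltransferase, and Ccdc25 were higher, with log2 differences of 0.49, 0.44 and 0.36. Scara3, the relative of Scara5 that was lower, is 155 kb from it in the same stretch. Farther away, and named after their values were seen, Gulo, an enzyme of vitamin C synthesis, was lower (log2 difference -1.51, limma adjusted p = 0.0154) and Ephx2, the soluble epoxide hydrolase, was higher (log2 difference 0.74, limma adjusted p = 0.00305). Zfp395, which lies 1.74 kb from Pnoc, was measured at 30.1 and 31.2 RPKM in Hdac3flox/flox and 28.1 and 27.7 RPKM in Hdac3cKO and was not called (log2 difference -0.14, limma adjusted p = 0.064). Beyond Zfp395, Fbxo16 was not called and Fzd3, a Wnt receptor, was higher by 0.25 (log2 difference, limma adjusted p = 0.0462).

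Around Rab6b, the closest tested gene, Srprb, 2.76 kb away, was not called (log2 difference 0.18, limma adjusted p = 0.0898). Slco2a1, a prostaglandin transporter 15.8 kb before the start of Rab6b, was lower (log2 difference -0.49, limma adjusted p = 0.0155) and Topbp1, a protein of the DNA damage checkpoint, was higher (log2 difference 0.36, limma adjusted p = 0.0155). Around Enc1, Gfm2, a mitochondrial translation factor, was not called. Nsa2, a factor of ribosome assembly, was lower by a log2 difference of -0.19 (limma adjusted p = 0.0489), a call that is lost after median-of-ratios scaling (limma adjusted p = 0.085). Fam169a, named after its value was seen, was lower at 0.464 ± 0.0493 against 1.03 ± 0.0522 RPKM (SD, n = 2 each; limma adjusted p = 0.0428). Of the 39 tested neighbours, Gcsh had the largest log2 difference in the upward direction.

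**Figure D4:**
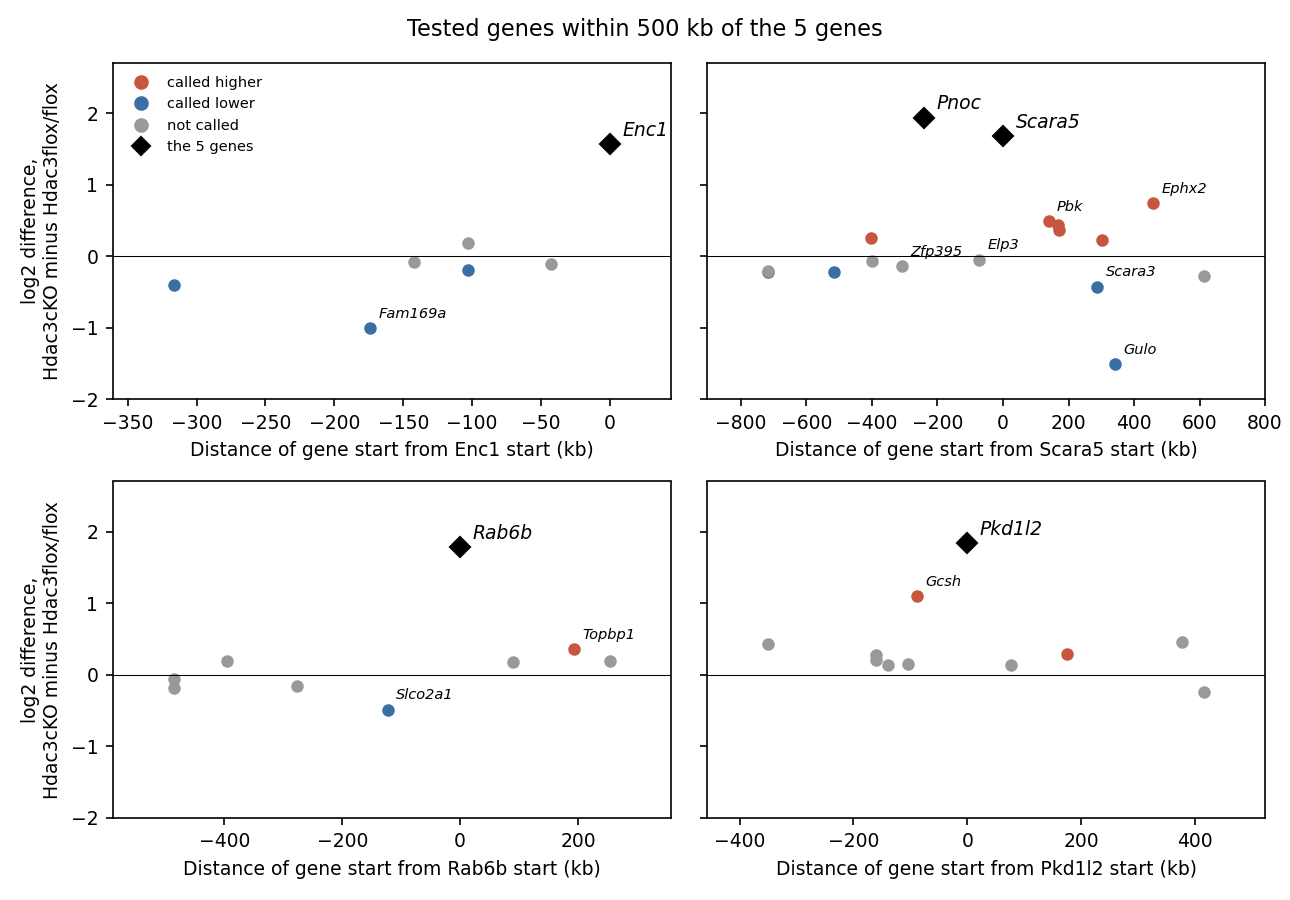
Log2 differences, Hdac3cKO minus Hdac3flox/flox, of tested genes within 500 kb of the 5 genes, against the distance of their starts in kb, with 1 panel for Enc1, 1 for Scara5 and Pnoc together, 1 for Rab6b and 1 for Pkd1l2. Black diamonds are the 5 genes, red and blue points are genes called higher and lower, and Gcsh, at 1.10, is the highest of the neighbours.

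The genes whose pattern over the 4 libraries was most like each of the 5 were found by the distance between log2(RPKM + 0.1) values after centring each gene. As the 5 genes were chosen for the contrast that dominates this pattern, the list is a description of 4 libraries. Egln3, which hydroxylates hypoxia-inducible factors, was the nearest gene to both Pkd1l2 (distance 0.0561) and Scara5 (distance 0.165), and was measured at 1.81 and 1.72 RPKM in Hdac3flox/flox and 6.68 and 6.08 RPKM in Hdac3cKO. Gabra5, a subunit of GABA-A receptors, was the nearest to Rab6b (distance 0.141) and also among the 3 nearest to Pkd1l2 and Scara5, at 0.165 and 0.128 RPKM in Hdac3flox/flox and 0.784 and 0.725 RPKM in Hdac3cKO, from 9, 7, 43 and 38 reads. The reads of Gabra5 are uncertain if the counting did not use strand. Among the 3 nearest to Enc1 were Mfsd2a, a lipid transporter (distance 0.172), and Ntf5, a neurotrophin (distance 0.228).

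Bmper, which binds BMPs, was among the 3 nearest to Scara5, Pnoc and Pkd1l2, at 3.89 and 4.56 RPKM in Hdac3flox/flox and 14.7 and 13.1 RPKM in Hdac3cKO. Pnoc had the least close neighbours of the 5, the nearest being Gm21887, a predicted gene, at a distance of 0.298, and the third Klk1b27 at 0.376, a member of the kallikrein family whose near-identical copies may share reads. Over the 5 genes, 9 distinct genes were found in this way, and that they were higher in Hdac3cKO follows from how they were found. Gabra5 and Kif19a, a kinesin listed for Rab6b, passed the filter through the Hdac3cKO libraries alone.

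Markers of other cells of the ovary were read in the same libraries, to be set against the 7.68% of all tested genes that were higher and the 11.0% that were lower. Of fibroblasts, where Scara5 is known from other organs, 4 of 7 stromal markers and 1 of 5 adventitial markers were lower and the rest were not called, and 4 of 6 endothelial markers were lower. Of theca markers 1 of 5 was higher and 3 were lower, 2 of 4 smooth muscle and 2 of 5 surface epithelium markers were lower, 1 of 6 oocyte markers was higher, and the 3 tested leukocyte markers were not called. The summed level of the adventitial fibroblast markers was 69.1 to 70.2 RPKM in Hdac3flox/flox and 60.0 to 61.4 RPKM in Hdac3cKO, and its defining genes Pi16 and Dpp4 held 8 to 24 reads in each library. For Pnoc and Rab6b, both best known from the nervous system, 7 genes of neurons and Schwann cells were read. Snap25 held 3, 4, 4 and 6 reads, Stmn2 held 21, 22, 17 and 18 reads, and Sox10 held 3, 14, 0 and 4 reads, while Tubb3 was higher (log2 difference 0.78, limma adjusted p = 0.0038). The summed level of this list was 25.9 to 26.7 RPKM in Hdac3flox/flox and 33.5 to 34.0 RPKM in Hdac3cKO.

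Of 3 tested genes of fat cells, Cfd and Car3 were higher and Plin1 was lower, and Adipoq held 0, 0, 9 and 11 reads in the 4 libraries, in the order Hdac3flox/flox then Hdac3cKO. As with Pnoc, Rab6b and Pkd1l2, Cfd and Car3 passed the filter through the Hdac3cKO libraries alone and could be tested only if higher there. For replicates 1 and 2, Cfd was measured at 0.1185 and 0 RPKM in the controls, against 2.29 and 7.02 RPKM after deletion. Car3 went from 0.0953 and 0.0190 RPKM to 0.832 and 1.86 RPKM. The ratios of means were 78.6 for Cfd and 23.6 for Car3, against at most 4.61 for the 5 genes. They are uncertain, as control reads were 2 and 0 for Cfd, 5 and 1 for Car3. Retn, below the filter, held 0, 1, 7 and 4 reads in the same library order. The summed level of the fat cell list was 11.8 to 13.7 RPKM for controls, against 11.4 to 17.3 RPKM for Hdac3cKO. In controls this sum was almost all Plin1, whose mean went from 12.59 to 7.795 RPKM. The part of fat cells, of more GC RNA or of any other change in cell composition in the differences of the 5 genes was not tested.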

How the data were processed

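RNA of each genotype was sequenced from 2 Illumina TruSeq libraries. The authors deposited RPKM values in 1 table, with 1 column for each library. Bowtie 0.12.2 and mm8 are named in the submitters' processing notes. The counting tool, the annotation and the use of strand were not given in the sources used here. With exon lengths of GENCODE M21 on GRCm38, 91.0% of 26771 matched rows gave whole reads (tolerance 0.001 reads), which is at odds with mm8, so positions are on GRCm38. The library totals recovered from the values were 18310258 and 18346828 reads (Hdac3flox/flox) and 18452073 and 17621129 reads (Hdac3cKO). Intervals are exact 95% intervals (Clopper-Pearson) of read ratios and cover counting error only, since they leave out the variation between libraries of a genotype. Duplicates were not marked by molecular identifiers, so that even the counting error may be understated.

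The methods name no test for this comparison. Genes reaching 0.5 RPKM in 2 or more libraries (15528) were compared as log2(RPKM + 0.1) by limma 3.58.1 (R 4.3.3) with a mean-variance trend and genotype alone in the model, which leaves 2 residual degrees of freedom. A call is a two-sided p under 0.05 after Benjamini-Hochberg adjustment over these genes. In all, 1193 genes were higher and 1711 lower in Hdac3cKO. Median-of-ratios scaling gave 1626 higher and 1355 lower and moved the median difference from -0.036 to 0.007. The 5 genes and the lists were chosen with earlier results of these data known.

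Genes were named as follows: the 5 genes, the 3 tested protein-coding genes nearest in pattern to each, the genes with the smallest p in each list (up to 5) and the closest relatives, the 3 nearest tested neighbours on each side, and Hdac3. Genes outside the rule are Kbtbd7, Pcbp1, Fth1, Msr1, Marco, Gulo, Ephx2, Fam169a and the markers. A few genes that the rule names are not reported here. The 24 names given to more than 1 row were not used. The fit was repeated with 1 or 0.01 added to RPKM, without the filter, with 1 RPKM required of every library, after median-of-ratios scaling, with voom on the recovered reads, with a block for the replicate number, and without each library in turn. Windows of 250 and 1000 kb were added after the data were seen. BLAST 2.17.0 was used to look for near-identical transcripts, and Python 3.11.15 with pandas 2.3.3 and matplotlib 3.10.9 for tables and plots.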

Additional observations from a re-analysis of the deposited data

How the results depend on the processing

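With 2 libraries per genotype, calls rest on few degrees of freedom. Leaving out each library in turn gave 0 to 45 genes higher and 0 to 53 lower, and 0 to 1 called both in the related lists and near the 5 genes, while 4075 to 4357 genes had an unadjusted p under 0.05 in limma. Of 32 named genes called, 4 were still called without Hdac3flox/flox replicate 1 and 0 without any of the others. Without a filter, 410 genes were higher and 544 lower, with 6 called in the lists and 6 near the 5 genes, and 17 of the 32 kept their call. Limma voom on recovered reads gave 1861 higher and 2774 lower, with 30 called in the lists, and all 32 kept their call. The replicate numbers share only a number (correlation of deviations 0.076 over 15528 genes), and a fit with them as a block gave 891 higher and 1252 lower, with 11 called in the lists and 13 near the 5 genes, and 25 of the 32 called. Windows of 250 and 1000 kb gave 13 of 27 and 20 of 56 neighbours called. Among the named genes, to which the alternatives were applied, directions turned in 5, none of them called, with a library left out. Their log2 difference then ranged from -0.099 to 0.003 for Elp3, -0.195 to 0.067 for Fbxo16, -0.007 to 0.297 for 1700030J22Rik, -0.459 to 0.169 for Pomc and -0.146 to 0.286 for Oprl1, with Fbxo16 at 0.035 without Hdac3flox/flox replicate 2. The differences of the 5 genes stayed above 0 throughout. As their genotypes do not overlap, leaving out a library or changing the pseudocount could not turn the direction. The differences ranged from 1.54 to 1.61 for Enc1, 1.64 to 1.72 for Scara5, 0.92 to 2.21 for Pnoc, 0.90 to 2.00 for Rab6b and 0.85 to 2.13 for Pkd1l2, the last 3 lowest with a pseudocount of 1. The causes were not tested. With 10 and 16 reads in Hdac3flox/flox, Pnoc is the gene most limited by depth.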
